A study of Mus musculus with 12 samples.

Results

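Mouse embryonic fibroblasts (MEFs) that lack ATF4 (KO) were profiled for mature miRNAs, untreated or after 24 h in 2 ug/mL tunicamycin. The 2 arrays of treated KO cells and the 2 arrays of untreated KO cells, 4 of the 12 arrays in the series, were chosen by the titles of the samples, and all 611 mouse miRNA names on the array were considered. The other 8 arrays came from KO cells treated for 12 h and from wild-type (WT) MEFs that were untreated or treated for 12 h or 24 h. All cells carried the C57BL/6 background, untreated cells had the same medium without the drug, and the series describes the 2 arrays of a group as independent experiments. Whether the KO cells came from 1 embryo, line or clone was not given in the sources used here, and a miRNA array carries no probe for the Atf4 mRNA, so the loss of ATF4 could not be checked.

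Tunicamycin blocks N-linked glycosylation, so that misfolded proteins collect in the endoplasmic reticulum (ER) and the unfolded protein response starts. ATF4 is the transcription factor that the PERK branch of this response makes, and it switches on genes of amino acid supply, redox balance and, when stress persists, cell death. A miRNA is a short RNA that lowers the output of mRNAs that pair with its seed, bases 2 to 8. Several miRNAs are known to be linked to ER stress, among them miR-30 family members, miR-34a, miR-199a-5p and miR-214, while miR-34 is best known as a target of p53 and let-7 as a family that restrains growth genes.

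The sequences of the miRNAs on which the results turn are given 5′ to 3′ with the seed in capitals, from RefSeq on GRCm38.p6. The array names are older than the RefSeq names and the files hold no probe sequence, so a name without an arm was matched to the arm usually meant by it. Of 21 names looked up, 19 had a sequence, and miR-34c and miR-143 are named only. The first set holds let-7b, miR-455 and miR-24-1*, which passed the test, and miR-34a and miR-34b-5p, which share a seed.

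let-7b: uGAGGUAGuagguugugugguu
miR-34a: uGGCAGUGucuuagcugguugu
miR-34b-5p: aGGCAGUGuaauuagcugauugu
miR-455: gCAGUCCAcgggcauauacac
miR-24-1*: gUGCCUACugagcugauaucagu

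let-7b lies at chr15:85707325-85707346 on the plus strand, within the long noncoding RNA Lncppara. miR-34a lies at chr4:150068473-150068494 on the plus strand, and no other annotated gene of the table used overlaps it. miR-34b-5p lies at chr9:51103610-51103632 on the minus strand, where Btg4 and Hoatz are annotated. miR-455 lies at chr4:63256904-63256924 on the plus strand within Col27a1, a fibrillar collagen gene. miR-24-1* is the passenger strand of the miR-24-1 hairpin at chr13:63301213-63301235 on the plus strand, within Aopep. Whether these positions are exonic or intronic was not given in the annotation used here.

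The second set holds miR-199a and miR-214, which were lower after treatment on both arrays. miR-199a-5p and miR-199a-3p are the 2 arms of 1 hairpin and have different seeds.

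miR-199a-5p: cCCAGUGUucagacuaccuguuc
miR-199a-3p: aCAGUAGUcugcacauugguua
miR-214: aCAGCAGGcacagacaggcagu

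The hairpin of miR-199a shown is Mir199a-2, with its 5p arm at chr1:162217844-162217866 and its 3p arm at chr1:162217883-162217904, and miR-214 lies at chr1:162223438-162223459, all on the plus strand within the noncoding RNA Dnm3os and the region annotated as Dnm3. A second locus makes the same miR-199a sequences.

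The third set holds let-7a, let-7c and let-7e, to be read beside let-7b: all 9 let-7 family members on the array share 1 seed, and let-7c differs from let-7b at 1 of 22 bases, let-7a at 2 and let-7e at 3. Probes may not separate such close sequences fully, so levels of single let-7 members are uncertain.

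let-7a: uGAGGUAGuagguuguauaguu
let-7c: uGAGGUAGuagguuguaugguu
let-7e: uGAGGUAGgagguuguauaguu

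A level is the log2 of the miRNA's summed probe signal divided by the array's 75th percentile, so that values compare arrays for 1 miRNA and never 2 miRNAs with each other. Signals below a floor of -4.93 were set to it. Before the results, the arrays need a description. The 2 untreated KO arrays had 75th percentiles of 709.5 and 791.2 intensity units, and 132 and 141 mouse miRNAs well above background. The 24 h arrays had 203.5 and 566.3 units and 92 and 164 such miRNAs, so replicate 1 was the dimmest array of the series and replicate 2 had the most miRNAs detected. The pooled SD between replicates was 0.13 for untreated KO and 0.95 for KO at 24 h. Across the 145 tested miRNAs the log2 differences of replicate 1 and replicate 2 had a Pearson r of 0.11 and a Spearman rho of 0.21, given as a description because miRNAs of an array share its scaling and background. Both differences were positive for 47 of 145 and both negative for 27. Treated and untreated arrays came from different slides and different scan sessions, with no slide or session holding both. The drug therefore cannot be told apart from the slide or the session in any value below. The 24 h replicates were scanned in different sessions, as were the untreated ones, and replicate 1 and replicate 2 cannot be told apart from those sessions either.

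**Figure D1:**
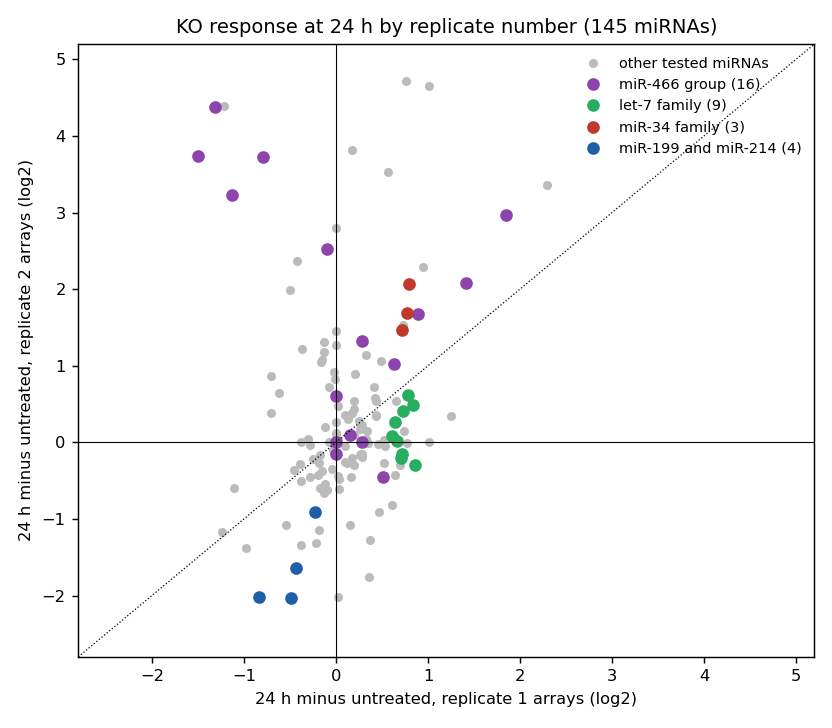
The log2 difference between KO at 24 h and untreated KO on the replicate 1 arrays (x axis) is plotted against that on the replicate 2 arrays (y axis), 1 point per tested miRNA, with the dotted line marking equal values. All 3 miR-34 members lie in the upper right and all 4 of miR-199 and miR-214 in the lower left, while 17 miRNAs exceed 2 on replicate 2 and 1 does on replicate 1.

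Of the 145 mouse miRNAs tested, 4 passed limma's adjusted p threshold of 0.05 between KO cells at 24 h and untreated KO cells, which is 2.76 percent, with 2 higher (1.38 percent) and 2 lower (1.38 percent). miR-34c, a p53-linked miRNA, and let-7b were higher. miR-455 and miR-24-1*, the passenger strand of miR-24, were lower and were not well above background on either 24 h array. Leaving out the first KO 24 h array gave 37 calls, leaving out the second 11, either untreated WT array 4 and each of the 8 remaining arrays 1. A fit without 1 KO 24 h array takes the replicate spread of that group out of the error, so its calls are no sign of strength. The median difference over all 145 was 0.19, and 26 (17.9 percent) had an unadjusted p below the threshold. Both 24 h arrays lay above both untreated arrays for 44 miRNAs (30.3 percent) and below them for 23 (15.9 percent). Below, a difference is KO at 24 h minus untreated KO on the log2 scale ± the standard error of the fit, with n = 2 per group, and p values are adjusted by limma over the 145.

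The miR-34 family, which slows the cell cycle downstream of p53, had all 3 members higher on both 24 h arrays. miR-34c was at -3.60 and -3.66 on the untreated arrays and at -2.89 and -2.19 on the 24 h arrays. Both treated values lay above both untreated values, and replicate 2 was the higher of the treated pair. miR-34c thus rose by 1.09 ± 0.20, or 2.13-fold (adjusted p = 0.0335). miR-34a was at -3.15 and -3.02 untreated and at -2.35 and -0.95 at 24 h. Its arrays did not overlap, but the 24 h arrays lay far apart, and the difference of 1.43 ± 0.41 did not pass (adjusted p = 0.129). miR-34b-5p, made from the same primary transcript as miR-34c, was at -4.47 and -4.39 untreated and at -3.70 and -2.71 at 24 h. Again the groups were separate, with a difference of 1.23 ± 0.28 that did not pass (adjusted p = 0.0697), and 1 of its 24 h arrays was well above background.

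The size of the miR-34 differences depended on the processing. miR-34c was at -0.12 with a normexp background correction and at -0.053 with no scaling between arrays. With normexp miR-34b-5p was at -0.21. All members measured were positive in 18 of 20 other processing settings and in all 12 fits that left out 1 array, but miR-34c passed in 6 of the 20. Many of these fits could not change the sign. Leaving out an array outside the comparison, or changing the block, weights, filter or groups fitted, leaves the differences as they are. The call of miR-34c was lost without any 1 of the 10 arrays outside KO at 24 h. Without 1 KO 24 h array the spread of the treated pair is not measured, so those fits do not test the call. Its difference was 1.44 without replicate 1 and 0.74 without replicate 2. With the scan session as a fixed block miR-34c did not pass either (adjusted p = 0.0811). Relative to the median of all tested miRNAs miR-34c stood at 0.90.

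Let-7 family members, which target growth genes such as Lin28 and Ras, had positive differences in all 9 cases, from 0.25 to 0.71 with a median of 0.35 beside 0.19 over all tested miRNAs. The family median was 0.72 on replicate 1, the dimmest array, and 0.09 on replicate 2. On replicate 1 all 9 members were positive and on replicate 2 6 were. let-7b was at 0.38 and 0.65 untreated and at 1.17 and 1.27 at 24 h, a pair of close values clearly above the untreated pair. It rose by 0.71 ± 0.13, or 1.63-fold (adjusted p = 0.0335), and was 0.52 above the median of all tested miRNAs. The other 8 members did not pass.

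Among those 8, let-7c was at 0.35 and 0.57 untreated and at 0.99 and 0.83 at 24 h, a difference of 0.45 ± 0.10 (adjusted p = 0.0697). let-7e was at 0.060 and 0.25 untreated and at 0.79 and 0.66 at 24 h, a difference of 0.57 ± 0.13 (adjusted p = 0.0697), which passed with the scan session as a fixed block (adjusted p = 0.0349). That block gave 3 calls, miR-455, let-7b and let-7e. miR-98, on chromosome X, was at -3.57 and -3.61 untreated and at -2.73 and -3.11 at 24 h, a difference of 0.67 ± 0.24 (adjusted p = 0.207). In each of these 3 the 24 h arrays lay above the untreated ones, as they did for 6 of the 9 members in all, against 30.3 percent of tested miRNAs. let-7a, let-7d and let-7i overlapped: let-7i was at 0.38 and 0.53 untreated and at 1.24 and 0.23 at 24 h, so that replicate 1 was above and replicate 2 below the untreated arrays.

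The direction of the let-7 family followed the scaling. All 9 members were negative with no scaling (-0.89 to -0.44), with the 75th percentile over all miRNAs (-0.61 to -0.16) and with the deposited value table (-0.89 to -0.44), and 6 of 9 were negative with quantile normalization. With median scaling all 9 were positive, from 0.0026 to 0.46. let-7b passed in 5 of 20 other processing settings. Its call was lost without any 1 of 9 arrays and kept without either untreated WT array. Without KO 24 h replicate 1 its difference was 0.76, but that fit does not measure the spread of the treated pair.

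**Figure D2:**
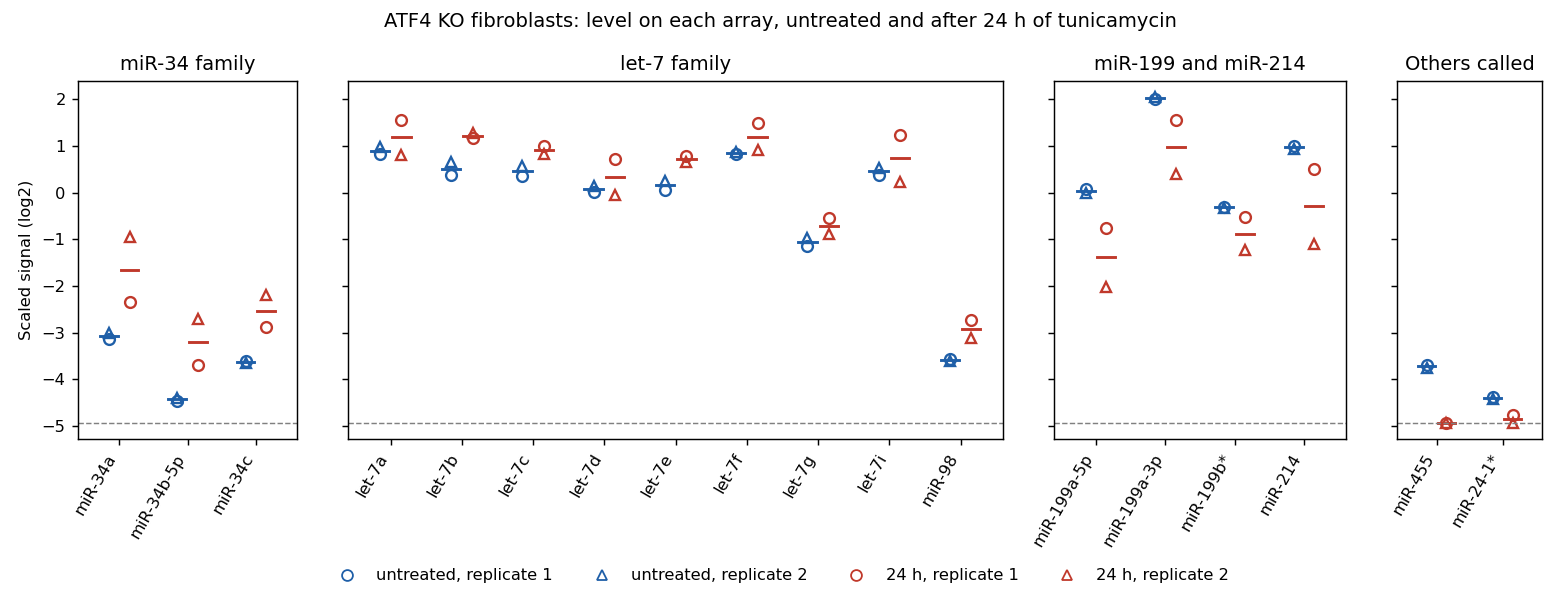
Level of each miRNA (log2 scaled signal, y axis) on the untreated KO arrays (blue) and the KO arrays at 24 h (red), with circles for replicate 1, triangles for replicate 2, short bars for group means and a dashed line at the floor of -4.93. The red points lie above the blue ones for all 3 miR-34 members and below them for miR-199, miR-214, miR-455 and miR-24-1*, while 3 let-7 members overlap.

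miR-455, which lies within Col27a1 and is known from cartilage, was at -3.69 and -3.76 untreated and at the floor on both 24 h arrays. The untreated arrays were both well above background and the treated arrays were not. It was at least 1.79-fold lower at 24 h (adjusted p = 4.06e-05). The bound sets each treated array at the higher of its level and the lowest level well above background on it. That was -4.20 on replicate 1 and the floor on replicate 2. It was tested only because both untreated KO arrays, where it is high, were well above background, and no other group met that filter, so its p is not independent of that choice. The floor limits its log2 difference, -1.20, and since every group but untreated KO was at the floor, its standard error of 0.06 and its p do not measure the spread of treated replicates. Its call was kept in all 12 fits without 1 array (adjusted p up to 0.000848). Its difference turned to 0.29 when normexp was fitted after spots with extreme local background had been left out.

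miR-24-1* was at -4.38 and -4.42 untreated and at -4.76 and -4.93 at 24 h. All 4 values were near the floor. It was at least 1.12-fold lower (log2 difference -0.44 ± 0.08, adjusted p = 0.0335). On 24 h replicate 1 the limit of -4.20 lay above both untreated values, so this bound comes from replicate 2 at the floor. It too met the detection filter only through untreated KO cells, where it is high, and its p rests on that choice. With a floor 2 times higher all 4 arrays were at the floor and the difference was 0. Its call was lost without any 1 of 8 arrays and kept without either untreated WT array. Fits without 1 KO 24 h array do not measure the spread of the treated pair and do not test the call. miR-24-1* did not pass with the scan session as a fixed block (adjusted p = 0.0811). The main strand of the same hairpins, miR-24, was at 0.38 and 0.42 untreated and at 0.19 and 0.15 at 24 h. Each pair was tight and the pairs did not overlap, yet the difference of -0.23 ± 0.08 did not pass (adjusted p = 0.182).

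In the clusters that encode miR-23, miR-27 and miR-24, the members differed in direction. miR-27b, from the same chromosome 13 cluster as miR-24-1*, was at -1.51 and -1.56 untreated and at -1.89 and -2.91 at 24 h, below on both arrays, a difference of -0.86 ± 0.28 (adjusted p = 0.182). miR-23a was above on both, at 0.55 and 0.54 untreated and at 0.98 and 1.08 at 24 h, a difference of 0.49 ± 0.18 (adjusted p = 0.207). Of the 6 tested members, 1 passed, lower, beside 1.38 percent of all tested miRNAs, and the median was -0.34. That median was -0.03 on replicate 1 and -0.39 on replicate 2. miR-23b was split, with 0.37 on replicate 1 and -1.28 on replicate 2.

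miR-199a and miR-214, which are abundant in mesenchymal cells and have been linked to the ER stress sensors ATF6 and IRE1, gave 3 of the 5 differences below -1. miR-199a-5p was at 0.085 and -0.0033 untreated and at -0.75 and -2.03 at 24 h, a difference of -1.43 ± 0.37 (adjusted p = 0.109). miR-214 was at 1.00 and 0.93 untreated and at 0.51 and -1.10 at 24 h, a difference of -1.26 ± 0.49 (adjusted p = 0.220). miR-199a-3p was at 2.00 and 2.04 untreated and at 1.56 and 0.40 at 24 h, a difference of -1.04 ± 0.35 (adjusted p = 0.191).

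In these 3 both treated arrays lay below both untreated ones, and replicate 2 was the lower of the treated pair each time. miR-199b*, from the related hairpin on chromosome 2, was at -0.31 and -0.33 untreated and at -0.53 and -1.24 at 24 h, a difference of -0.57 ± 0.24 (adjusted p = 0.264). So 0 of these 4 passed, and the distance between the treated arrays, 0.71 for miR-199b* and 1.62 for miR-214, was of the size of the differences. All 4 were negative in all 20 other processing settings and in all 12 fits without 1 array. Many of these fits could not change the sign. Leaving out an array outside the comparison, or changing the block, weights, filter or groups fitted, leaves the differences as they are. Without KO 24 h replicate 2 the differences were -0.79 to -0.21. All 4 passed with no scaling (-2.57 to -1.71) and with the deposited value table (-2.58 to -1.71), where the median of all tested miRNAs was -0.77 and -0.47.

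**Figure D3:**
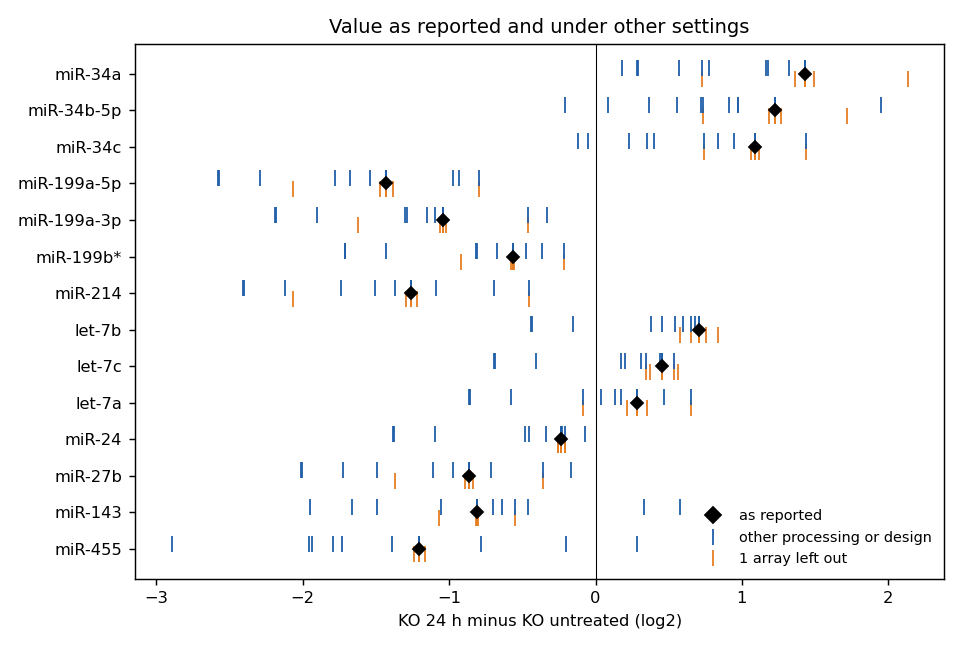
The difference between KO at 24 h and untreated KO (log2, x axis) is shown for 14 miRNAs as reported (black diamond), under other processing or designs (blue bars) and with 1 array left out (orange bars). The bars of miR-199 and miR-214 stay below 0 throughout, those of miR-34a above it, and those of the let-7 members cross it.

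The rule for large differences named miRNAs whose 2 treated arrays did not overlap with the 2 untreated ones. Together these were 46.2 percent of those tested. The 10 largest positive differences of this kind belonged to miR-877*, miR-468, miR-207, miR-669c, miR-1224, miR-1196, miR-466c-5p, miR-1187, miR-34a and miR-466h, and 0 of them passed. miR-468 was at the floor on both untreated arrays and at -2.63 and -1.57 at 24 h. Both treated arrays were well above background and neither untreated array was. Its 24 h mean was 7.09-fold above the floor, a ratio that leaves out the standard error, with adjusted p = 0.389.

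miR-207 was at the floor on both untreated arrays and at -4.16 and -0.22 at 24 h, well above background on replicate 2 alone. Its 24 h mean was 6.68-fold above the floor (log2 difference 2.74, adjusted p = 0.544). Replicate 1 alone stood 0.76 above the floor and replicate 2 alone 4.71, on the log2 scale. miR-1224 was at -0.86 and -0.80 untreated and at -0.30 and 2.73 at 24 h (2.04 ± 1.05, adjusted p = 0.368). In both cases replicate 2 carried most of the difference. Of the 20 miRNAs with a difference above 1, 14 had 24 h arrays more than 1 apart, and of the 5 with a difference below -1, 3 did.

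The 10 largest negative differences without overlap belonged to miR-199a-5p, miR-214, miR-455, miR-690, miR-199a-3p, miR-27b, miR-222, miR-143, miR-362-5p and miR-218, and of these 1 passed. miR-222, which lowers the cell cycle inhibitor p27, was at -3.82 and -4.33 untreated and at the floor on both 24 h arrays, at least 1.40-fold lower (adjusted p = 0.253). miR-143, a miRNA of smooth muscle and other mesenchymal cells, was at -3.08 and -3.07 untreated and at -3.62 and -4.15 at 24 h. The 2 pairs were apart, but the difference of -0.81 ± 0.21 did not pass (adjusted p = 0.110). miR-690 was at -2.58 and -2.61 untreated and at -3.56 and -4.00 at 24 h (-1.18 ± 0.71, adjusted p = 0.389).

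The miR-466 group, a set of repeat-rich and closely related miRNAs of a cluster in the Sfmbt2 gene with miR-467 and miR-669 members, had 16 of 39 names tested and 0 past the threshold. Its median difference was 0.94, but 0.08 on replicate 1 and 1.50 on replicate 2. miR-466f-3p showed the split in full, at -3.43 and -3.46 untreated, at the floor on 24 h replicate 1 and at 0.27 on replicate 2. In KO at 12 h it was likewise at the floor on replicate 1 and at 1.34 on replicate 2. miR-669c was above on both arrays, at -4.17 and -4.26 untreated and at -2.32 and -1.30 at 24 h (2.41 ± 1.50, adjusted p = 0.396). On replicate 2 of the 24 h arrays 24 of the 39 names were well above background, against 12 and 14 on the untreated arrays and 7 on 24 h replicate 1. The summed scaled signal of the group, on a linear scale, was 1.31 and 1.17 untreated and 1.52 and 8.29 at 24 h. The part of the array, the scan session or the sequence similarity of these miRNAs in this gap was not tested.

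The medians of the miR-17-92 and miR-29 groups were split by replicate in the same way, though some members were not. The first, which with its paralogs promotes proliferation, had 0 of 9 past the threshold and a median of 0.44, with -0.13 on replicate 1 and 1.14 on replicate 2. Among them miR-92a was at 0.33 on replicate 1 and 1.14 on replicate 2, while miR-93 was below on both, at -0.39 and -0.28. The paralogs miR-106b (0.28 and -0.19) and miR-25 (0.46 and -0.02) went the other way. The miR-29 family, which holds down collagen mRNAs, had 0 of 4 past the threshold and a median of 0.36, with -0.02 and 0.77. Its miR-29b* was at 0.20 and 0.10.

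Of 18 tested miRNAs linked to ER stress by earlier work, from 33 on the list, 0 passed higher and 1, miR-455, passed lower. The median of the 18 was -0.27, against 0.19 over all 145. It was -0.03 on replicate 1 and -0.32 on replicate 2, against 0.10 and 0.03 over all 145. In 4 the 24 h arrays lay above the untreated ones and in 9 below, beside 30.3 and 15.9 percent of all tested miRNAs. miR-30c and miR-30d, of a family linked to the ER chaperone BiP, stood at 0.39 ± 0.17 (adjusted p = 0.279) and 0.26 ± 0.20 (adjusted p = 0.492). miR-221 and miR-222, which act on p27, stood at -0.36 (adjusted p = 0.389) and -0.85. miR-96, whose precursor is a known substrate of the IRE1 nuclease as is that of miR-34a, stood at 0.28 (adjusted p = 0.264). miR-106b, miR-93 and miR-25, a cluster reported to be repressed through PERK, stood at 0.05, -0.34 and 0.22.

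Fibroblast-abundant miRNAs had 0 of 33 tested past the threshold, from 36 on the list, and a median of -0.13. That median was -0.02 on replicate 1 and -0.28 on replicate 2. Both 24 h arrays were above the untreated ones for 5 and below for 12, beside 44 and 23 of all 145. miR-21, a miRNA of activated fibroblasts, was at 4.63 and 4.64 untreated and at 4.80 and 4.43 at 24 h, with a difference of -0.014 ± 0.19 and the treated arrays on either side of the untreated pair. miR-125b-5p was at 1.84 and 1.80 untreated and at 1.72 and 1.26 at 24 h (-0.33 ± 0.20, adjusted p = 0.389). miR-22 was at 1.46 and 1.25 untreated and at 1.48 and 1.27 at 24 h (0.025 ± 0.14, adjusted p = 0.929).

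The remaining lists held few calls, to be read beside 2.76 percent called over all tested miRNAs, 1.38 percent in each direction. The p53-linked list had 1 of 6 past the threshold, higher, which is miR-34c, and a median of 0.57, and its miR-143 stood at -0.81, lower on both arrays. The miR-30 family had 0 of 7 with a median of 0.26, the miR-15/16 family 0 of 6 with -0.10, and the hypoxia and inflammation list (miR-146a, miR-146b, miR-155 and miR-210) 0 of 4 with 0.53. The miR-15/16 median was 0.02 on replicate 1 and -0.38 on replicate 2. Star strands had 1 of 11 past the threshold, lower, which is miR-24-1*. miR-155, an inflammatory miRNA, was at -4.83 and -4.85 untreated and at -4.62 and -3.96 at 24 h (0.55 ± 0.26, adjusted p = 0.327).

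**Figure D4:**
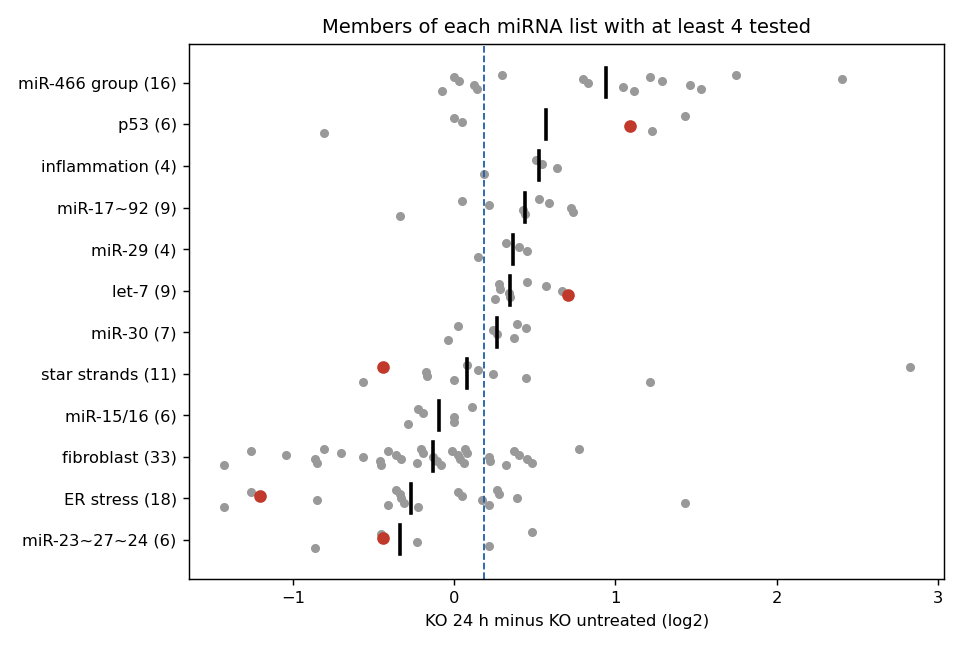
Difference between KO at 24 h and untreated KO (log2, x axis) for each tested member of the lists with at least 4 tested members, 1 point per miRNA at arbitrary heights within its row, with the number tested in brackets, black bars at list medians, a dashed line at the median of all 145 (0.19) and the miRNAs that passed in red. Members of 1 list spread over more than the distance between most medians, and a miRNA can stand in several lists.

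The cell type was checked with marker miRNAs. On the KO arrays 33 of 36 fibroblast names were well above background untreated, and 30 and 32 at 24 h. Of 7 epithelial, 7 neural, 16 pluripotent and 9 blood or endothelial marker names, 0 were well above background on any of the 4 arrays, and of 7 muscle names 1 was, on 24 h replicate 2. Names tied to fragments of other RNAs, miR-720 and miR-709, stood at 0.24 (adjusted p = 0.389) and 0.20 (adjusted p = 0.798). Fewer cells making a miRNA and less of it per cell cannot be told apart in such bulk RNA.

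Fewer miRNAs were detected at 24 h on the dim first replicate. There were 88 mouse miRNAs well above background on all 4 KO arrays, 15 on both untreated arrays and neither 24 h array, and 1 the other way round, miR-468. Another 28 were well above background on both untreated arrays and 1 of the 24 h arrays, which was replicate 2 in 25 cases and replicate 1 in 3. The 15 lost included miR-455, miR-222, miR-218, miR-152, miR-33 and miR-24-1*, and the highest lower bound among them was 1.79-fold for miR-455. The part of array brightness in these losses was not tested.

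KO cells at 24 h were set against KO cells at 12 h to see whether the later time added to the earlier one. Here 0 of 145 miRNAs (0 percent) passed in either direction by limma, and 10 (6.9 percent) had an unadjusted p below the threshold, but 35 passed without KO 24 h replicate 1 and 1 without KO 12 h replicate 1. The lowest p belonged to miR-96, miR-34c and miR-140, a miRNA of cartilage and fibroblasts, all with adjusted p = 0.479. miR-34c was at -3.22 and -3.25 at 12 h, between the untreated and the 24 h arrays (24 h minus 12 h, 0.70 ± 0.20). miR-140 was at -1.39 and -1.77 at 12 h and at -0.93 and -0.41 at 24 h (0.91 ± 0.29). miR-96 was at -2.10 and -2.04 at 12 h and at -1.70 and -1.57 at 24 h (0.43 ± 0.12).

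In these 3 the 24 h arrays lay above the 12 h arrays. Same-numbered arrays of the 2 times shared a scan session. With the session as a block 0 passed too, with 13 at an unadjusted p below the threshold and adjusted p = 0.453 for the lowest. The 12 h and 24 h responses share the untreated arrays, so they are set side by side only. The miR-34 members stood at 0.39 to 0.55 at 12 h and 1.09 to 1.43 at 24 h. The let-7 members stood at 0.19 to 0.56 at 12 h and 0.25 to 0.71 at 24 h, and the 4 of miR-199 and miR-214 at -0.92 to -0.37 at 12 h and -1.43 to -0.57 at 24 h. Both miRNAs called lower at 24 h already passed at 12 h by limma, at or near the floor. miR-455 stood at -1.20 (adjusted p = 4.06e-05) and miR-24-1* at -0.50 (adjusted p = 0.0320). At 12 h let-7b (0.43, adjusted p = 0.172) and miR-34c (0.39, adjusted p = 0.472) did not pass.

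Whether the 24 h response depends on ATF4 was tested by subtracting the WT response from that of KO cells. Of 145 miRNAs, 12 (8.28 percent) passed, 11 higher in KO (7.59 percent) and 1 lower (0.69 percent), around a median of 0.34, and 36 (24.8 percent) had an unadjusted p below the threshold. There were 33 and 34 calls when the first or the second KO 24 h array was left out, and 6 or 7 when any untreated array, either KO 12 h array or the second WT 24 h array was. All 3 miR-34 members were among the 12. In WT cells miR-34c was at -3.04 and -3.03 untreated and at the floor on both 24 h arrays, at least 2.63-fold lower, while it rose in KO cells; the difference was 2.98 ± 0.28 (adjusted p = 0.000623). miR-34b-5p in WT was at -3.56 and -3.50 untreated and at the floor at 24 h, at least 1.87-fold lower, and the difference was 2.62 ± 0.39 (adjusted p = 0.00791). The floor in WT cells limits both of these differences. miR-34a in WT was at -2.11 and -2.02 untreated and at -3.42 and -3.05 at 24 h, and the difference was 2.60 ± 0.59 (adjusted p = 0.0416).

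All 3 members thus stood higher at 24 h in both replicates of KO cells and lower in both replicates of WT cells. With the scan session as a fixed block the difference of miR-34a no longer passed (adjusted p = 0.0606), and 16 passed in all, 11 of them among the 12. With normexp the 3 differences turned to -0.78, -1.03 and -0.17, in the order miR-34c, miR-34b-5p, miR-34a. WT and KO arrays lay in different rows of each slide, so genotype and row cannot be told apart.

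Among these calls miR-34c alone had a rise in KO cells past the threshold. Those of miR-34a and miR-34b-5p did not pass (adjusted p = 0.129 and 0.0697). The other 9 calls did not come with such a rise either. miR-26a, a miRNA that restrains growth, was at -1.20 and -1.12 untreated and -1.17 and -1.56 at 24 h in KO, and at -1.22 and -1.34 untreated and -2.40 and -2.53 at 24 h in WT (difference 0.97 ± 0.22, adjusted p = 0.0416). miR-130a differed by 0.81 ± 0.19 (adjusted p = 0.0460), from -0.081 in KO and -0.89 in WT. let-7c differed by 0.64 ± 0.15 (adjusted p = 0.0416), from 0.45 in KO and -0.19 in WT. miR-148a differed by 1.53 ± 0.33 (adjusted p = 0.0416), from 0.28 in KO and -1.25 in WT.

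For the other 5 the floor sets part of the value. miR-195 and miR-497, made from 1 transcript, were at the floor on all KO arrays used, so their differences of 0.87 and 1.04 (adjusted p = 0.000808 and 0.000429) are the WT falls alone. No decrease could be seen in KO. In WT at 24 h both were also at the floor, at least 1.29-fold and 1.45-fold lower. Their p values thus do not measure the spread of treated replicates. Among the groups of this test, both met the detection filter only in untreated WT cells, where they are high. Their p is not independent of that choice. miR-210, a hypoxia miRNA, and miR-146b were flagged above background but lay under the floor on both untreated KO arrays, where no decrease could be seen (differences 1.63 and 2.15, adjusted p = 0.00857 and 0.0320). miR-455 was at the floor on all WT arrays, and its -1.20 (adjusted p = 0.000429) is the KO fall alone. miR-199a-5p, miR-214, miR-199a-3p and miR-199b* were lower in both genotypes, at -1.07, -1.44, -1.04 and -0.62 in WT, and the test of the difference gave adjusted p from 0.782 to 1.

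**Figure D5:**
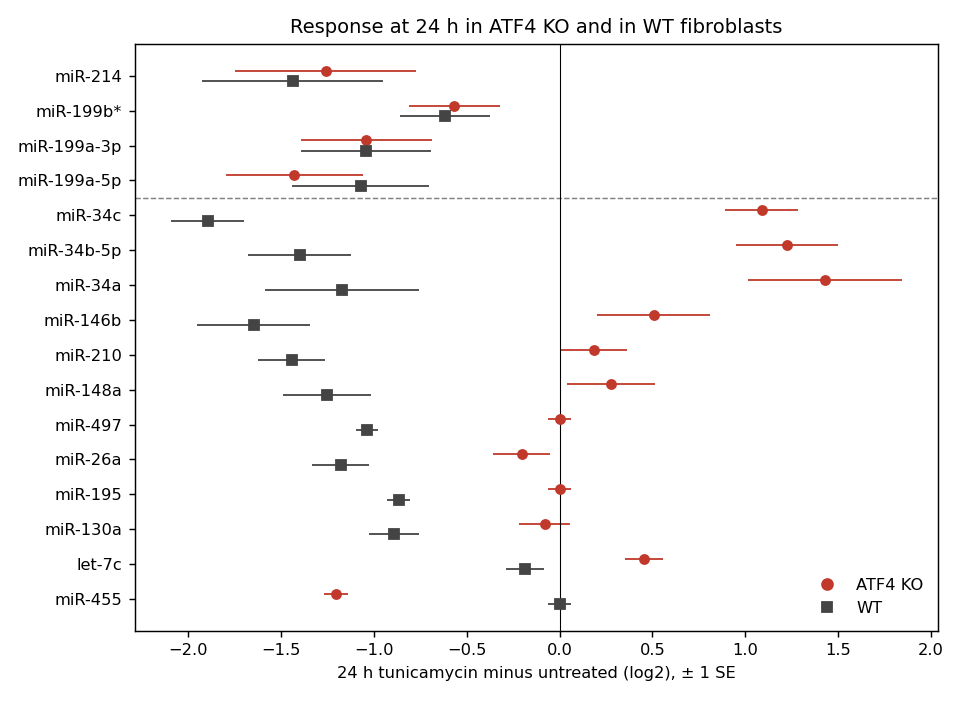
Response at 24 h (log2, x axis, ± 1 standard error of the fit) in KO (red circles) and WT cells (dark squares) for the 12 miRNAs whose responses differed past the threshold, below the dashed line, and for miR-199 and miR-214 above it. The 3 miR-34 members lie at 1.09 to 1.43 in KO and at -1.89 to -1.17 in WT, while miR-199 and miR-214 lie at similar negative values in both.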

How the data were processed

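Total RNA was labelled with Cy3 and hybridised to Agilent 1-colour miRNA arrays, read by the authors with Agilent Feature Extraction 10.7.1.1 per the submitters' processing notes. Per the file headers, spot signals are intensity values, background-subtracted and not scaled between arrays, and other columns hold 0 or 1 flags. Values in the authors' deposited table are log2 of their total gene signal. Probe means of the processed signal (outlier spots left out) were summed per miRNA. Each sum was scaled to its array's 75th percentile, taken over 82 names that all 12 arrays showed well above background, then floored at 0.0328 (-4.93 in log2). Detection of a probe required the well-above-background flag on 50 percent of its spots or more. Mouse miRNAs detected on both arrays of any group, 145 in all, were fitted in R 4.3.3 with limma 3.58.1 (6 group means, eBayes, 6 residual degrees of freedom), with Benjamini-Hochberg adjustment. Lower bounds set a dim array at the higher of its floored level and its lowest signal well above background, and leave out the standard error. The fit was also run on simulated data that had the same spread in every group and no floor. The arrays differ from this in both, so that run does not bear on the calls made here. The number of arrays limits the precision, and the p values reflect array-to-array spread alone.

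The members, lists and tests were chosen with earlier results of these data known. Named miRNAs were those past the threshold, up to 10 per direction that differed most without overlap, the 10 highest in untreated KO cells, up to 4 per list and, for the other comparisons, those past the threshold or the 3 with the lowest p. Remaining members of the let-7, miR-34 and miR-199 groups and a few list members were added after their values were seen. Alternatives covered background correction (normexp, offset 50, on the median spot signal, since the mean was not among the columns used), measure, scaling, floor, filter, spread, replicate and scan blocks (statmod 1.5.0) and left-out arrays. Same-numbered untreated and 24 h KO arrays deviated with a correlation of -0.26, so the numbers were not taken to pair them. Same-numbered treated arrays, which shared a scan session, did deviate together. The correlation was 0.83 between KO and WT at 24 h and 0.71 between KO at 12 h and KO at 24 h. It was 0.95 between KO and WT at 12 h. The main fits left this sharing out, while the fits with a replicate or scan block took it in.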

Additional observations from a re-analysis of the deposited data

Results flagged for a closer look

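These results stood out because the 24 h response differed between KO and WT cells past limma's adjusted threshold; values are the KO response minus the WT response on the log2 scale. They were 2.98 for miR-34c, 2.62 for miR-34b-5p, 2.60 for miR-34a, 2.15 for miR-146b, 1.63 for miR-210, 1.53 for miR-148a, 1.04 for miR-497, 0.97 for miR-26a, 0.87 for miR-195, 0.81 for miR-130a, 0.64 for let-7c and -1.20 for miR-455. The floor sets part of the value for miR-34c, miR-34b-5p, miR-146b, miR-210, miR-497, miR-195 and miR-455.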

How the results depend on the processing

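For KO at 24 h against untreated KO, 4 miRNAs passed as reported, and the count was 0 with normexp, 14 (3 higher, 11 lower) with the deposited table, 1 with median scaling, quantile normalization, the 75th percentile over all miRNAs or no filter, 55 (0 higher) with no scaling, 2 and 8 with a floor 4 times lower and 2 times higher, 0 of 88 with only miRNAs well above background on all 4 arrays, and 0 with only the groups compared. The replicate block gave 2, and a crossed pairing on 4 arrays, added later, gave 0. Alternatives chosen after seeing the data gave 11 (normexp without spots of outlying local background) and 54 (without the 4 arrays of the second tunicamycin scan). Leaving out 1 array gave 1 to 37, of which 37 came without the first KO 24 h array, 11 without the second and 4 without either untreated WT array.

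For 24 h against 12 h the count of 0 became 1 with the total gene signal or the deposited table, 6 with no scaling, 27 without the second scan, and 0 to 35 with 1 array left out (35 without the first KO 24 h array and 1 without the first KO 12 h array). For the difference of responses the count of 12 became 0 with normexp (both forms) and the 75th percentile over all miRNAs, 3 with the total gene signal, 1 with the table and with the strict filter, 5 with median scaling and no filter, 2 with quantile normalization, 6 with the higher floor, 7 with only the groups compared, 22 with array weights, 23 with a random scan block, 66 without the second scan and 6 to 34 with 1 array left out (33 and 34 without KO 24 h replicates 1 and 2, and 6 or 7 without any 1 untreated array, either KO 12 h array or WT 24 h replicate 2). The replicate block gave 15, with all 12 among them. The median of 0.19 became -0.38 with normexp, 0.28 with the total gene signal, -0.47 with the table, 0 with median scaling or no filter, -0.20 with quantile normalization, -0.53 with the 75th percentile over all miRNAs, -0.77 with no scaling, 0.048 with the higher floor, 0.63 with the other normexp fit, 0.13 without the second scan, and 0.045 to 0.19 with 1 array left out.

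Values that turned for KO at 24 h: miR-455 to 0.29 and miR-24-1* to 0.57 with normexp without outlying spots; miR-24-1* to 0 with the higher floor; let-7b to -0.44 (table), -0.16 (75th percentile over all) and -0.44 (no scaling); miR-34c to -0.12 (normexp) and -0.053 (no scaling). No scaling turned let-7a to -0.86, let-7d to -0.89, let-7i to -0.86, miR-15b to -1.03, miR-106b to -1.10, miR-107 to -1.09, miR-29b* to -0.73 and miR-709 to -0.94. Without the second scan miR-21 was at 0.17, miR-23b at 0.34, miR-20a at -0.14, miR-466f-3p at -1.48 and miR-140* at -0.65. For the difference of responses normexp turned miR-146b to -1.15, miR-148a to -1.23, miR-195 to -1.40, miR-210 to -0.43, miR-26a to -0.43, miR-34a to -0.17, miR-34b-5p to -1.03, miR-34c to -0.78 and miR-497 to -1.31. The 75th percentile over all miRNAs turned let-7c to -0.43, miR-130a to -0.26 and miR-26a to -0.0939, and the higher floor took miR-195 to 0. Among miRNAs that passed in neither fit, 198 values of 52 of the 82 miRNAs and differences examined changed sign. The cause was not tested. Signal over background limits every miRNA near the floor.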
